A study of Drosophila melanogaster with 2 samples.

Results

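Aminoacyl-tRNA synthetases are the enzymes that attach each amino acid to its own tRNA, so that the ribosome can read a codon as that amino acid. Animal cells run this reaction in the cytoplasm and again inside mitochondria, and many amino acids have a separate nuclear gene for each compartment. In mammals several cytoplasmic synthetases are held together in a multi-synthetase complex. The genes are needed in nearly every cell, and in flies the mitochondrial forms carry -m in their symbols. Chromatin at these genes was described here in an experiment on Oaz, a C2H2 zinc-finger protein.

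The family was taken as the protein-coding genes whose symbol is a three-letter amino acid name, or a pair of such names, followed by RS, with or without a suffix. Of 13968 protein-coding genes on the chromosome arms, 33 were members. Symbols of 15 members had -m and those of 18 lacked it. In humans the same gene supplies both compartments for glycine and for lysine, so the absence of -m does not fix the compartment. A gene was counted as having a summit when the highest point of a listed peak lay within 1000 bp of one of its transcription start sites. The rule uses symbols and no measured value, though it was written with earlier results of these data known.

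The study mapped Oaz fused to eGFP by chromatin immunoprecipitation with sequencing in whole embryos of Drosophila melanogaster, 0 to 24 hours old. There was 1 group of flies, strain Oaz-GFP, with 2 biological replicates, and no second genotype, treatment or stage. The labels describe an insertion at Oaz and do not say what drives the fusion. Antibody information differs between fields of the labels, which name GFP in one place and Oaz in another. Embryos were used whole, so a peak cannot be assigned to a cell type. The authors deposited an optimal and a conservative list for both replicates together, and 1 list for each replicate. The 4 thresholded lists held 1680 to 2846 peaks, and the longer ranked lists from which they came held 81899 to 150275. Each peak carries the peak caller's signal, on a scale the sources do not state. In the ranked lists it also carries an irreproducible discovery rate (IDR), which is low where peaks rank both high and alike in repeated measurements. Each replicate list was made from that replicate and a control, so its IDR does not compare the 2 replicates. Thresholded peaks had an IDR of 0.01 or less. The depth behind each peak is unknown, since only peak lists were analysed.

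Among the 33 synthetase genes, 7 had a summit of the optimal list within 1000 bp. They were ArgRS, GluProRS, IleRS, LeuRS-m, MetRS, SerRS and ThrRS. This was 21.2% of the family, with a Wilson 95% interval of 10.7% to 37.8%, against 14.0% of all protein-coding genes (1950 of 13968). The share of all genes lay inside the interval, so the count did not set the family apart. The interval covers counting error only. All 7 summits lay upstream of the synthetase start site, as did 83.7% of those at all genes with a summit. All 7 genes had a neighbour transcribed away from them from a start site within 1000 bp.

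Of the 7 peaks, 5 are shown as sequence, each from 100 bp before to 100 bp after the summit, on the plus strand of dm6, from RefSeq's Release 6. The text below refers to the letters and base composition of all 7 windows, and those of MetRS and SerRS are not printed. Capitals mark ACAGT, or ACTGT where the match is on the other strand. The windows are chrX:15844180-15844380 for ArgRS, chr3R:23958431-23958631 for GluProRS, chr3L:22288390-22288590 for IleRS, chr3L:4824883-4825083 for LeuRS-m and chr2L:12103456-12103656 for ThrRS.
ArgRS: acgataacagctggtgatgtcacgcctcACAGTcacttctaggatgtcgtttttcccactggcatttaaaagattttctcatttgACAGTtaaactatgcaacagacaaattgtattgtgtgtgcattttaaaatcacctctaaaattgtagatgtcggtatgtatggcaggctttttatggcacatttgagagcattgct
GluProRS: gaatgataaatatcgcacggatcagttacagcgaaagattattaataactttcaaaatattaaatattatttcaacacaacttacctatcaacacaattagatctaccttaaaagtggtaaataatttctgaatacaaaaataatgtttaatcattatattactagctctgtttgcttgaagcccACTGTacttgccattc
IleRS: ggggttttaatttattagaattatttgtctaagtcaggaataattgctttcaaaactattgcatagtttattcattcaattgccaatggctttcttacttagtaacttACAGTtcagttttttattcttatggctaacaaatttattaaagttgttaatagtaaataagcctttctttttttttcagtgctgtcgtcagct
LeuRS-m: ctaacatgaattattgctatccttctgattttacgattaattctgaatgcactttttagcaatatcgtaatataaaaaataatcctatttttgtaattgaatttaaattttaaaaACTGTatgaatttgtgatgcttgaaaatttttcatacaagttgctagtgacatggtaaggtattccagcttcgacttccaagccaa
ThrRS: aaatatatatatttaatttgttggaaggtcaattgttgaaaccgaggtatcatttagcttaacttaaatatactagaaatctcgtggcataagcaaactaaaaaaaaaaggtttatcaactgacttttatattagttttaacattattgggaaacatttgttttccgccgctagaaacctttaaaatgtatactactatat
The ArgRS window held 2 matches, those of GluProRS, IleRS and LeuRS-m held 1 each, and that of ThrRS held 0. Of the windows not printed, that of MetRS held 1 match and that of SerRS held 0. All except the ArgRS window had more A and T than the median of all summit windows, 64.7%.

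GluProRS (FBgn0005674), a fused enzyme that charges both glutamate and proline tRNAs, had the strongest peak of the family. The peak, chr3R:23958475-23958626, had a signal of 316.4 and ranked 208 of 2846 in the optimal list, with an IDR of 1.37e-05. Its signal was equal to or above that of 88.3% of all genes with a summit, itself included. In the single replicates the signal was 182.1 in replicate 1 and 139.5 in replicate 2, and both replicate lists held the peak. The summit lay 140 bp upstream of GluProRS and 120 bp upstream of AP-1sigma, which encodes the small subunit of a clathrin adaptor. The start sites of these genes are 260 bp apart, and the summit lay between them.

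LeuRS-m (FBgn0027085), which charges leucine tRNAs in mitochondria, was the only member with -m that had a summit. Its peak, chr3L:4824938-4825060, had a signal of 305.9 and ranked 225, with an IDR of 1.94e-05. Replicate 1 gave 188.9 and replicate 2 gave 114.4, and both lists held it. The location was unlike that of the other 6 peaks. The summit was 870 bp upstream of LeuRS-m, in an intron of the divergent neighbour Dhc64C, the heavy chain of cytoplasmic dynein. The Dhc64C start site was nearer, at 704 bp, and the start sites are 166 bp apart. In replicate 2 the summit was 119 bp away from that of the optimal list.

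IleRS (FBgn0027086), which charges isoleucine tRNAs, had a peak at chr3L:22288325-22288654. Its signal was 204.3, ranking 456, with an IDR of 8.24e-05. Replicate 1 gave 127.8 and replicate 2 gave 77.7, and both lists held the peak. The summit was 175 bp upstream of IleRS, within the 470 bp that separate it from Hem, a subunit of the WAVE complex that drives actin branching.

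SerRS (FBgn0031497), which charges serine tRNAs, had a peak at chr2L:3037294-3037623 with a signal of 161.3, ranking 714 at an IDR of 0.000236. It was listed in both replicates, with 99.5 in replicate 1 and 59.6 in replicate 2. SerRS and its neighbour CG17260 start only 8 bp apart. The summit was 56 bp upstream of SerRS and lay in the 5' UTR of CG17260, whose start site was nearer, at 47 bp.

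ThrRS (FBgn0027081), which charges threonine tRNAs, had a peak at chr2L:12103391-12103720 with a signal of 130.0, ranking 990 at an IDR of 0.000585. The replicates differed more here. Replicate 1 gave 91.4 and listed the peak, and replicate 2 gave 36.3 with an IDR of 0.0103, just outside the 0.01 limit. The summit was 195 bp upstream of ThrRS, within the 466 bp that separate it from Patsas.

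MetRS (FBgn0034401), which charges the methionine tRNAs used both to start and to extend proteins, had a peak at chr2R:18850535-18850864 with a signal of 105.1, ranking 1365 at an IDR of 0.00139. Neither replicate list held it. The ranked lists gave 61.2 with an IDR of 0.0126 in replicate 1, and 37.8 with an IDR of 0.0256 in replicate 2. The summit was 101 bp upstream of MetRS, between its start site and that of CG15084, which are 245 bp apart.

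ArgRS (FBgn0027093), which charges arginine tRNAs, had the weakest listed peak, chrX:15844115-15844444. Its signal was 68.1, ranking 2423 of 2846 at an IDR of 0.00598. That was equal to or above the signal of 6.82% of all genes with a summit, itself included, and the conservative list lacked the peak. It was also the only 1 of the 7 with a higher signal in replicate 2, where it was 48.7 with an IDR of 0.00349 and passed the threshold. In replicate 1 it was 21.5 with an IDR of 0.569. The summit was 135 bp upstream of ArgRS, between it and CG8578, whose start sites are 331 bp apart.

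**Figure D1:**
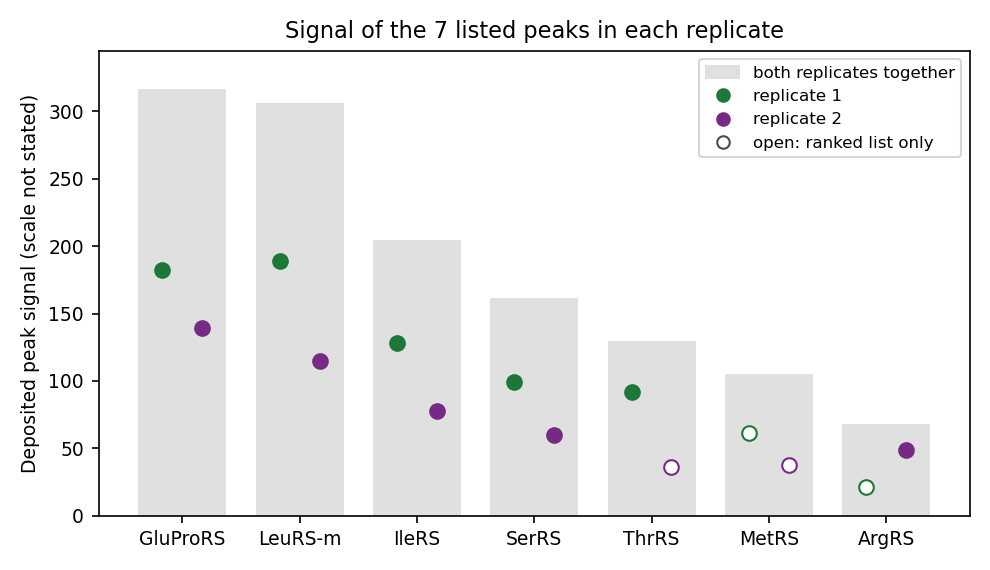
Deposited peak signal (y axis, scale not stated) of the 7 listed peaks in both replicates together (grey bars), replicate 1 (green) and replicate 2 (purple), filled where the thresholded list of that replicate held the peak. Replicate 1 is higher at 6 of 7 genes, with ArgRS the exception at 21.5 in replicate 1 and 48.7 in replicate 2. Grey bars and dots share the y axis, but the sources do not state whether joint and single-replicate signals can be compared.

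Taken by replicate list, 5 of 33 members (15.2%) had a summit in replicate 1, against 10.1% of all protein-coding genes. In replicate 2 it was also 5 of 33 (15.2%), against 9.57%. Both Wilson intervals ran from 6.65% to 30.9%. The replicates shared GluProRS, IleRS, LeuRS-m and SerRS, while ThrRS was listed only by replicate 1 and ArgRS only by replicate 2. The optimal peaks of 4 of the 7 members (57.1%) therefore overlapped peaks of both replicate lists, against 55.3% of all genes with a summit. Replicate 1 had the higher signal at 6 of 7 members (85.7%), against 81.7% of the 1895 genes with a signal in both ranked lists. In the conservative list 6 members (18.2%) had a summit, against 13.1% of all genes. At an IDR of 0.001 or less there were 5 members, where 8.04% of all genes passed.

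**Figure D2:**
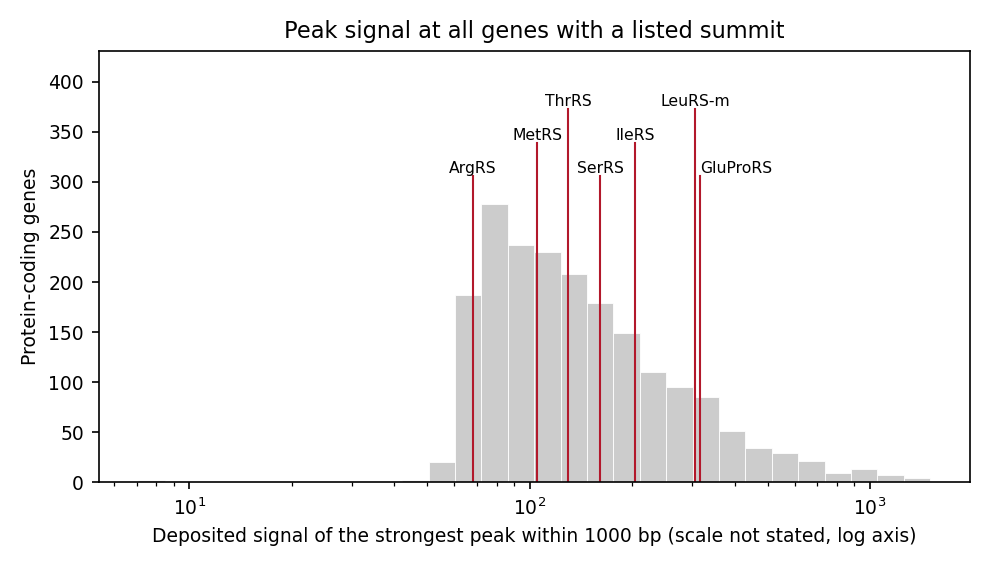
Number of protein-coding genes (y axis) by the signal of their strongest optimal peak within 1000 bp (x axis, log scale), over the 1950 genes with a summit. Red lines mark the 7 synthetase genes, which run from ArgRS at 68.1 to GluProRS at 316.4.

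The median signal over the 7 members was 161.3, with a range of 68.1 to 316.4, against a median of 124.8 over all 1950 genes with a summit. Of the 7, 5 were above that median. The 1950 genes ranged from 7.08 to 1501, so the members lay within the spread of other genes with a summit. A peak near several genes counts once for each of them, and the 1950 genes had 1335 summit windows. Median distance from the synthetase start site to the summit was 140 bp, against 179 bp for all genes with a summit. Within 200 bp were 6 of 7 members (85.7%), against 54.7% of genes with a summit. That limit was not among the planned ones and the share has no interval, so it does not set the family apart. Median peak width was 330 bp for the members and for all genes with a summit. None of the 33 gene bodies held a summit of the optimal list, against 8.50% of all protein-coding genes. No interval was computed for this share and gene length was not taken into account, so it does not set the family apart.

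Head-to-head gene pairs are common among compact fly genes, where promoters of both genes share a short gap. A divergent neighbour within 1000 bp was annotated for 23 of 33 members (69.7%), against 36.2% of all protein-coding genes. All 7 members with a summit had one, as did 16 of the 26 members without (61.5%). Among all genes, it was 62.3% of those with a summit and 31.9% of those without. Of the 23 divergent members 7 had a summit (30.4%, interval 15.6% to 50.9%), against 24.0% of divergent protein-coding genes. Of the other 10 members 0 had a summit, which leaves an interval up to 27.8%, against 8.25% of protein-coding genes with no divergent neighbour. Both background shares lay inside the members' intervals. The summit lay between the paired start sites in 5 of 7 members (71.4%), against 63.1% of divergent genes with a summit. A peak in such a gap belongs to neither gene by position alone.

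**Figure D3:**
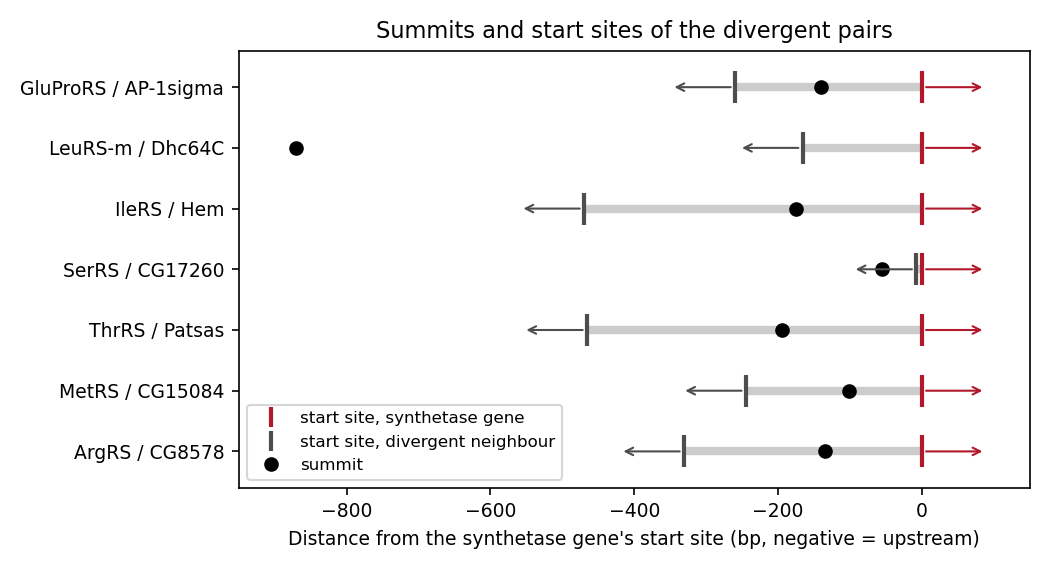
Position of each optimal-list summit (black dot) on an axis of bp from the start site of the synthetase gene, with that start site in red, that of the divergent neighbour in grey and the gap between them shaded. For 5 genes the dot is in the gap; for SerRS and LeuRS-m it is beyond the neighbour's start site.

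The assignment of peaks to genes mattered for this reason. AP-1sigma, Dhc64C and CG17260 had the nearer start site at 3 of the 7 peaks (42.9%), against 30.3% of all genes with a summit. When each summit was given only to the gene with the nearest start site, ArgRS, IleRS, MetRS and ThrRS were left, so 4 of 33 members had a summit, against 9.97% of all genes. With a limit of 500 bp, 6 members had a summit, against 11.6% of all genes. A limit of 250 bp left the same 6, against 9.07%. LeuRS-m was the member lost at both limits. No summit fell in the wide range between LeuRS-m at 870 bp and AlaRS, whose nearest summit was 2461 bp from its start site and had a signal of 159.2. Next outside was AsnRS-m, at 3321 bp, with a signal of 141.4.

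**Figure D4:**
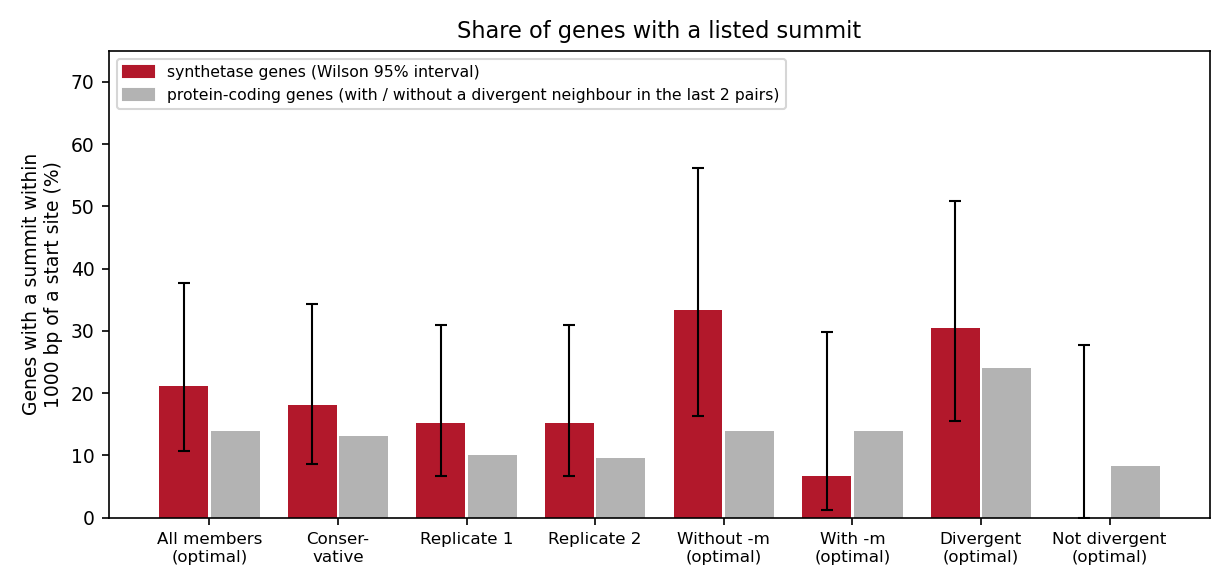
Share of genes with a summit within 1000 bp (y axis, percent) for synthetase genes (red, with Wilson 95% intervals) and protein-coding genes (grey), by peak list, symbol and divergent neighbour. Only the interval for members without -m, 16.3% to 56.3%, lies clear of its grey bar, at 14.0%, but it holds the 24.0% of protein-coding genes with a divergent neighbour, which 16 of those 18 members have.

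Members without -m had a summit in 6 of 18 cases (33.3%, interval 16.3% to 56.3%), and members with -m in 1 of 15 (6.67%, interval 1.19% to 29.8%), against 14.0% of all genes. The intervals of these groups overlap, and their difference was not tested. They also differ in gene arrangement, since 16 of 18 members without -m had a divergent neighbour, while 7 of 15 with -m did. Among members with such a neighbour, 6 of 16 without -m had a summit (37.5%, interval 18.5% to 61.4%), as did 1 of 7 with -m (14.3%, interval 2.57% to 51.3%). Both intervals hold the 24.0% of divergent protein-coding genes. In the conservative list the counts were 5 of 18 without -m (27.8%, interval 12.5% to 50.9%), and the same 1 of 15 with -m, against 13.1% of all genes. In the list of each replicate they were 4 of 18 (22.2%) and 1 of 15 (6.67%). The share of all genes was 10.1% in replicate 1 and 9.57% in replicate 2, inside the intervals of both groups. With the nearest start site only, the counts were 4 of 18 and 0 of 15, against 9.97% of all genes, and no interval was computed.

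For 14 amino acids the family holds a gene with -m and one without, counting GluProRS for both glutamate and proline. The gene without -m alone had a summit for 6 of them, namely arginine, glutamate, isoleucine, methionine, proline and serine. The mitochondrial gene alone had one for leucine. For the other 7 amino acids (alanine, asparagine, aspartate, cysteine, tryptophan, tyrosine and valine) neither gene had one. No pair had a summit at both genes. Only 1 of the 15 genes with -m had a summit, so at most 1 pair could have had both. Among all protein-coding genes 14.0% had a summit, so the absence of such a pair says little. LeuRS, the cytoplasmic partner of LeuRS-m, reached only 20.6 in the ranked list, at an IDR of 0.503.

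A list of the 8 synthetase genes whose mammalian counterparts sit in the multi-synthetase complex was drawn up after the values were known. It counted 4 with a summit (ArgRS, GluProRS, IleRS and MetRS) and 4 without (AspRS, GlnRS, LeuRS and LysRS). The interval of 21.5% to 78.5% lies above the 14.0% of all genes. All 8 had a divergent neighbour, and the interval holds the 24.0% of divergent protein-coding genes. The count was 3 of 8 in the conservative list (interval 13.7% to 69.4%), against 13.1% of all genes. It was 2 of 8 in replicate 1 alone (interval 7.15% to 59.1%), against 10.1%. In replicate 2 alone it was 3 of 8 (interval 13.7% to 69.4%), against 9.57%. Because the list was drawn up with the values known, these shares are no test of the complex. By the structural class of the catalytic domain, 4 of 18 class I members and 2 of 14 class II members had a summit. These shares were 22.2% and 14.3%, and the Wilson intervals of both hold the 14.0% of all genes. In the list of replicate 1 the counts were 2 of 18 and 2 of 14, against 10.1% of all genes. In the list of replicate 2 they were 3 of 18 and 1 of 14, against 9.57%. The intervals in each replicate list also hold the share of all genes, so neither class was set apart. The class I count was lowest without replicate 2 and the class II count without replicate 1. GluProRS joins one domain of each class and was left out of that count.

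The ranked list, which keeps peaks past the IDR limit, held a peak within 1000 bp of 32 of the 33 members, against 90.5% of all genes. Such peaks are so widespread that their presence says little about a gene. The exception was AspRS-m, which charges mitochondrial aspartate tRNAs, with no peak in the joint ranked list and a signal of 10.1 in the ranked list of replicate 2. Over the 32 members the strongest ranked signal had a median of 32.2, against 36.5 over all protein-coding genes. Members without -m had a median of 50.5 and members with -m of 27.7. Among members with no thresholded peak the groups were close, at 27.2 without -m and 27.6 with -m, against 33.6 over all such genes. In the single replicates the medians over members were 24.3 in replicate 1 and 18.0 in replicate 2, against 23.1 and 18.8 over all genes.

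**Figure D5:**
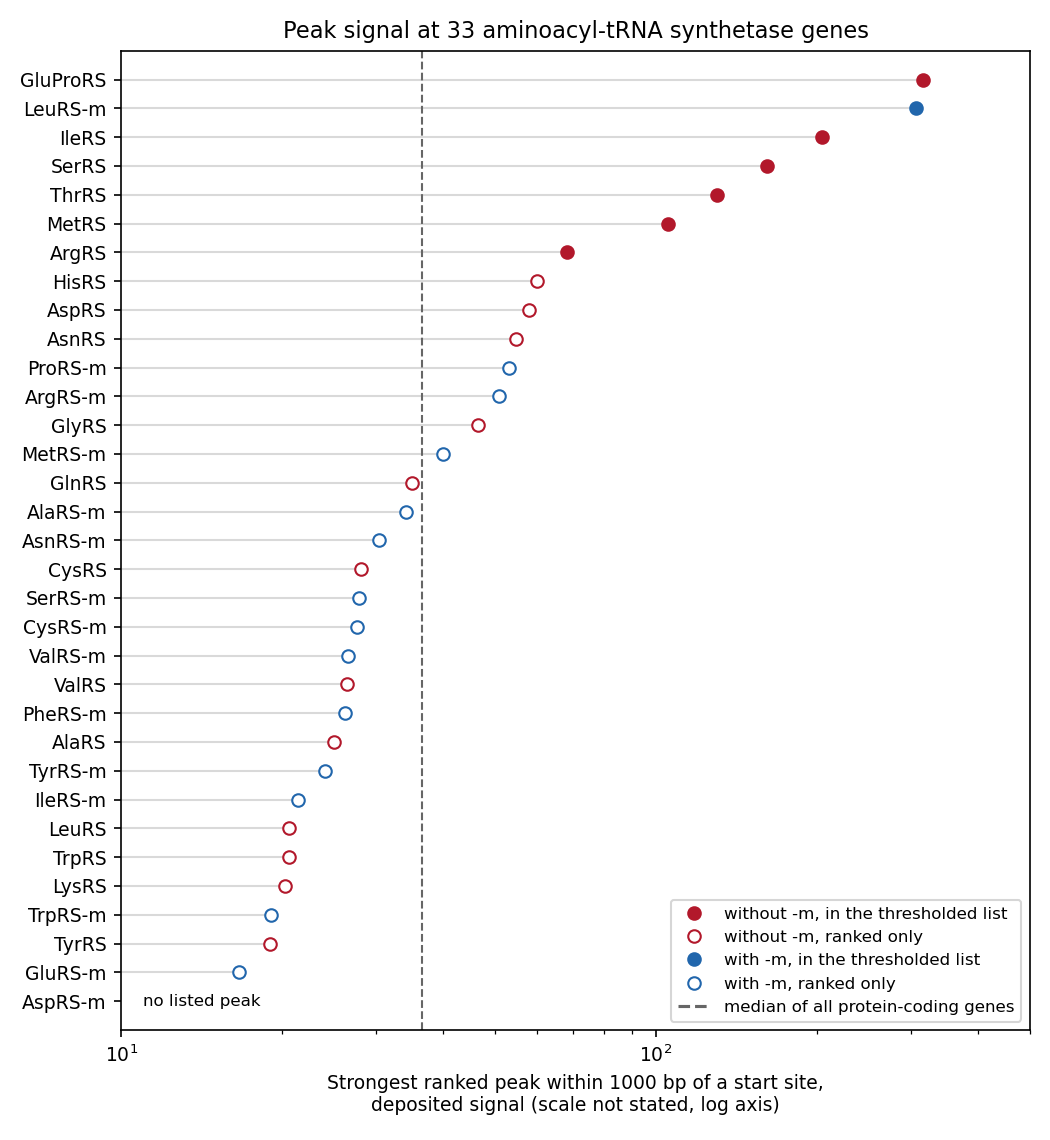
Signal of the strongest joint ranked peak within 1000 bp of 32 of the 33 synthetase genes, AspRS-m having none (x axis, log scale, unit not stated), red without -m and blue with -m, filled where the optimal thresholded list held a peak. The 7 filled points lie at 68.1 and above, HisRS is the next at 59.9, and the dashed line is the median of all protein-coding genes, 36.5.

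Just outside the IDR limit was HisRS, which charges histidine tRNAs. Its peak had a signal of 59.9 at an IDR of 0.0140, close to ArgRS inside the limit with 68.1 at 0.00598. HisRS reached 31.5 in replicate 1 and 24.6 in replicate 2. AspRS, the cytoplasmic aspartate enzyme, followed with 57.9 at an IDR of 0.0369, and with 43.5 in replicate 1 and 17.8 in replicate 2. The asparagine enzyme AsnRS had 54.7 at an IDR of 0.112. The mitochondrial enzymes for proline and arginine were next, ProRS-m with 53.1 at an IDR of 0.0902 and ArgRS-m with 50.8 at 0.0822. These 5 genes had ranked peaks near those of ArgRS in signal but did not pass.

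The remaining genes were weaker. GlyRS, the glycine enzyme, had 46.4, MetRS-m had 39.9, GlnRS, the glutamine enzyme, had 34.9 and AlaRS-m had 34.0. The signal was 30.4 at AsnRS-m, 28.1 at CysRS, 27.8 at SerRS-m, 27.6 at CysRS-m, 26.6 at ValRS-m and 26.4 at ValRS. PheRS-m, which charges mitochondrial phenylalanine tRNAs, had 26.2, AlaRS had 25.0, TyrRS-m had 24.0 and IleRS-m had 21.4. All of these lay below the 36.5 median of all genes except GlyRS and MetRS-m, which were above it. The lowest signals were 20.6 at LeuRS and TrpRS, 20.2 at LysRS, 19.0 at TrpRS-m, 18.9 at TyrRS and 16.6 at GluRS-m. The nearest optimal summit to a member without one was between 2461 bp, at AlaRS, and 39412 bp, at TrpRS.

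Other genes that act around tRNA charging were listed by function, and 23 of 24 symbols matched the annotation. Of the 23, 6 had a summit of the optimal list within 1000 bp, against 14.0% of all genes. The synthetase genes whose symbols miss the naming rule, alpha-PheRS and beta-PheRS for phenylalanine and the synthetase-like Slimp, had 0 of 3. Cytoplasmic elongation factors had 3 of 6. These were eEF1gamma with a signal of 289.0 at 4 bp from its start site, eEF1alpha1, which brings charged tRNAs to the ribosome, with 146.0 at 62 bp, and eEF2, which moves the ribosome along, with 110.5 at 1 bp. Replicate lists held eEF1gamma in both replicates and the other pair only in replicate 2.

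Elongation factors of mitochondria had 0 of 4. AIMP1, a scaffold protein of the multi-synthetase complex, had a summit with a signal of 72.9 at 4 bp, in neither replicate list, while AIMP2 and AIMP3 had none. GatA, a subunit of the enzyme that turns glutamate into glutamine on mitochondrial tRNAs, had 98.3 at 103 bp, in the list of replicate 2 only, and GatB and GatC had none. The summit at GatA was nearer to the start site of its divergent neighbour P5cr. In the list of deacylase and editing-like genes CG10802 had 136.7 at 124 bp in both replicate lists, and Dtd had none. Neither Gcn2, the kinase that senses uncharged tRNAs, nor crc, the fly ATF4 that acts below it, had a summit.

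Motifs were counted on both strands within 100 bp of the 7 summits, against all 2772 optimal summits on the arms. The 6-mer ACAGTG was in 1 of 7 windows (GluProRS, 14.3%), against 22.2% of all windows. TATAAA was in 4 of 7 (57.1%), against 35.3%, and occurred 4 times in the SerRS window. None of the 7 held the DRE core TATCGATA, which was in 2.78% of all windows. Nor did any hold GGTCACACT, at 1.01% of all windows, or the E-box CACGTG, at 2.27%. GCACCC, at 4.26%, and TGATGCAA, at 0.469%, were also in none. Only 1335 of the 2772 windows were at genes with a summit. Among these, ACAGTG was in 20.7%, TATAAA in 37.5%, TATCGATA in 5.17% and GGTCACACT in 1.95%. CACGTG was in 2.62%, GCACCC in 4.12% and TGATGCAA in 0.449%. With 7 windows, such counts describe these peaks and no more.

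Shorter forms were counted after the windows had been read. ACAGT, which is part of ACAGTG, was in 5 of the 7 (71.4%), against 41.5% of all summit windows. ACAGTT, which also contains ACAGT, was in 4 of the 7, at ArgRS, IleRS, LeuRS-m and MetRS (57.1%), against 13.2%. Because the motifs were picked from these same windows, the shares are no test of them. The median AT content was 72.1% over the 7 windows, from 61.7% at ArgRS to 73.1% at ThrRS, against 64.7% over all summit windows. Over the 1335 windows at genes with a summit, ACAGT was in 41.8% and ACAGTT in 14.6%, and median AT content was 65.7%.

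Promoters, taken as 250 bp before to 50 bp after a gene's most upstream start site, were searched for the same letters. The DRE core was in 2 of 7 promoters of members with a summit (ArgRS and IleRS) and 3 of 26 of those without (AlaRS, PheRS-m and TrpRS), against 9.36% of all promoters. ACAGTG was in 2 of 7 and 8 of 26, against 13.9%. GGTCACACT was in 0 of 7 and 4 of 26, against 6.04%. TATAAA was in 3 of 7 and 15 of 26, against 45.8%. CACGTG was in 1 of 7 and 1 of 26, against 4.2%. GCACCC was in 0 of 7 and 2 of 26, against 5.32%, and TGATGCAA in 0 of 7 and 0 of 26, against 0.816%. AT content had a median of 63.7% over the 7 and 64.8% over the 26, against 62.0% over all promoters. A match to these letters is not evidence that a factor was there.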

How the data were processed

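The data were peak lists from 2 biological replicates of 1 group. Chromatin was sonicated to fragments of 200 to 800 bp, per the labels. Reads of both replicates, aligned to dm6, and a control gave the joint lists, and those of 1 replicate and the control gave each replicate list, per the deposited sample notes. Which aligner or caller was used is not given in the sources used here. The deposited signal, on a scale the sources do not state, was used unscaled. Deposited −log10 values of the global IDR were turned back into IDRs, and the 8 per-library columns of the ranked lists were not used.

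Genes and start sites came from Ensembl release 115 (19630 protein-coding start sites on the arms) and sequence from RefSeq's Release 6, in which 0 listed peaks ran past an arm end. Where several summits were near a gene, the strongest was used. Overlap with a replicate peak was 1 bp or more. With 1 group, no test between samples exists and none was run over the genes. Every member is named, and genes around charging are named where they had a summit. Members, lists and motifs were chosen with earlier results of these data known. Counting of summits was tested on simulated data. Alternatives changed the list, IDR limit, distance, assignment, overlap and replicate. Tables were made in Python 3.11.15 with pandas 2.3.3, intervals with scipy 1.17.1, and figures with matplotlib 3.10.9.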

Additional observations from a re-analysis of the deposited data

How the results depend on the processing

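The count of 7 members with a summit was 4 with the nearest start site only and 32 with every ranked peak, an alternative chosen after seeing the data. It was 5 to 6 under the conservative list, an IDR of 0.001, either distance limit and either replicate alone. The 1 member with -m became 0 at 500 bp, at 250 bp and with the nearest start site only, because the LeuRS-m summit is 870 bp away and nearer to Dhc64C. The median member signal of 161.3 was 77.7 to 127.8 without a replicate, 204.3 at an IDR of 0.001 and 117.5 with the nearest start site only. Whole lists also differed in median signal, at 79.5 (replicate 1) and 64.1 (replicate 2), against 102.8 (optimal), and the other settings change which genes enter. The median distance of 140 bp was 141 to 171 bp without a replicate and 175 bp at an IDR of 0.001. The 4 members in both replicate lists became 3 at 500 bp, at 250 bp and when summits had to lie within 100 bp of each other. The count was 1 with the nearest start site only. It was 7 when replicate ranked lists were used, also chosen after seeing the data. Keeping only the strongest of overlapping peaks changed none of these values. No paired analysis was possible because there is 1 group and no contrast. Depth is unknown, and 7 genes limit every share.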
